A study of Mus musculus with 30 samples.

Results

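The genes of the cytosolic ribosome were followed in mouse embryonic stem (ES) cells that lack thymine DNA glycosylase (Tdg -/-) and in ES cells that carry floxed alleles of the same gene (Tdg fl/fl). Members were symbols that begin with Rpl or Rps and a digit, or that equal Rpsa, Rplp0, Rplp1 or Rplp2. Rps6k kinases, names that end in l and names with -ps were left out, and a level of at least 1 FPKM (fragments scaled to transcript length and to the mapped fragments of the library) in either genotype was required. The rule found 79 genes among 12053 measured ones, 46 named Rpl and 33 named Rps, and the FPKM minimum removed none of them: the lowest, Rps19bp1, stood at 15.2 FPKM in Tdg -/- and 17.7 FPKM in Tdg fl/fl cells. Of the 79, 75 are canonical ribosomal proteins. The other 4 meet the letters of the rule only. Rpl22l1 and Rpl7l1 are paralogues, Rps4y2 is listed in the reference gene table as Rps4l, a transcribed pseudogene, and Rps19bp1 encodes a protein that binds Rps19 and is no part of the ribosome.

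Both genotypes were ES cells of the strain labelled C57BL/6-ICR, and polyA RNA was sequenced as single reads of 51 bp from 2 libraries of each. The culture was feeder-free, in serum with LIF and the inhibitors CHIR99021 and PD0325901, per the labels of the embryoid body libraries of the same series. The labels do not say how Tdg was deleted, which part of it, or whether each genotype is 1 clone. The authors deposited 1 FPKM value for each symbol and genotype, so no spread between replicates can be had, no value below has an error or a test, and each difference is a description of these 2 tables. Tdg stood at 9.48 FPKM in Tdg -/- and 22.1 FPKM in Tdg fl/fl cells, 42.9% of its Tdg fl/fl level. All 10 ES cell markers were measured in both genotypes, among them Pou5f1 at 612 and 631 FPKM in Tdg -/- and Tdg fl/fl cells. They summed to 7343 FPKM in Tdg -/- and 7164 FPKM in Tdg fl/fl cells. All of them but Pou5f1, Nanog and Zfp42 were higher in Tdg -/- cells as deposited. Of 10 fibroblast or feeder markers, 4 reached 1 FPKM in each genotype. The sum of these 10 was 945 FPKM in Tdg -/- and 757 FPKM in Tdg fl/fl cells, most of it Fn1 at 930 and 734 FPKM. The others that reached 1 FPKM were lower in Tdg -/- cells: Vim at 10.7 and 16.3 FPKM, Acta2 at 2.88 and 3.89 FPKM and Thy1 at 1.72 and 2.36 FPKM. Col1a1 was at 0.304 and 0.418 FPKM and Lum at 0 in both. The part of such cells in the differences below was not tested. In bulk RNA, fewer cells of a type and less RNA per cell cannot be told apart.

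The ribosome is built of a small subunit, which reads the messenger RNA, and a large subunit, which joins amino acids. Each ribosomal protein is needed in step with the others and with ribosomal RNA, and proteins made in excess are degraded. In mammals their genes are scattered over the chromosomes, and their messenger RNAs begin with a run of pyrimidines, the terminal oligopyrimidine (TOP) tract, through which mTOR and Larp1 set their translation. ES cells divide fast and hold these messenger RNAs at high levels.

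The members on chromosome 11 were among the 12 lowest in change, so stretches of promoter are shown for those of them that have one in the RefSeq promoter table (GRCm38.p6), beside Rpl41 and Rpl7a, the lowest canonical members elsewhere, and Rpl4, among the highest. Rpl19 has 2 annotated starts and Rpl27 and Rpl23 hold neither feature in this stretch. Each stretch runs from 60 bases before to 30 bases from the annotated start, 5′ to 3′ on the gene's strand. Capitals mark runs of at least 7 C or T bases within 25 bases of the start, and the ETS core CCGGAAG on either strand, where CTTCCGG is the same core read on the opposite strand. ETS factors such as GABP bind that core.
Rpl38 (chr11:114668520-114668609, plus strand): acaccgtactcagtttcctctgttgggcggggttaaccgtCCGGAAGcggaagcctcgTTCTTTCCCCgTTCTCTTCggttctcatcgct
Rpl19 start 1 (chr11:98026650-98026739, plus strand): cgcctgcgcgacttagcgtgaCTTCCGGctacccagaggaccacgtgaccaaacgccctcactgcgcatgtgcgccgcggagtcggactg
Rpl19 start 2 (chr11:98026864-98026953, plus strand): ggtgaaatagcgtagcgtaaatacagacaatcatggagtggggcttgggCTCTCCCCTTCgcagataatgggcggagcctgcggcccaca
Rpl26 (chr11:68901506-68901595, plus strand): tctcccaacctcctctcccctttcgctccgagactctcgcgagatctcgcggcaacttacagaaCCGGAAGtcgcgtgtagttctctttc
Rpl27 (chr11:101442185-101442274, plus strand): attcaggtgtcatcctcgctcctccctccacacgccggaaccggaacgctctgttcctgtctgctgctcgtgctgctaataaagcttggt
Rpl23 (chr11:97782410-97782499, minus strand): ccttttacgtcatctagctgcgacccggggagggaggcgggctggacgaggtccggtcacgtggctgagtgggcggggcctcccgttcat
Rpl41 (chr10:128549139-128549228, minus strand): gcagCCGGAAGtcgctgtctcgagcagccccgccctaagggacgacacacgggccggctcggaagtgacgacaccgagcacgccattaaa
Rpl7a (chr2:26910747-26910836, plus strand): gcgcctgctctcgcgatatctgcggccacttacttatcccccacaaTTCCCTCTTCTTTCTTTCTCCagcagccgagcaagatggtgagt
Rpl4 (chr9:64173327-64173416, plus strand): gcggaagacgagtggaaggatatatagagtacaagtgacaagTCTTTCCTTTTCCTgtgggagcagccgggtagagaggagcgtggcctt

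Promoters of the members were then searched for known motifs. Of the 75 canonical members, 56 had a promoter of 300 bases, 250 before and 50 from the start. The ETS core lay in 24 of the 56 (42.9%), against 20.04% of 494 other genes of at least 100 FPKM and 9.93% of all 27025 genes of the promoter table. A pyrimidine run stood within 25 bases of the start in 34 of the 56 (60.7%), against 32.8% and 32.7% of the same 2 sets. The reverse letters of the ETS core hold a short pyrimidine stretch, so both features can overlap. The GC box GGGCGG, the site of SP and KLF factors, lay in 60.7% of members, against 73.7% of the other genes of at least 100 FPKM and 38.2% of all genes. The YY1 core AAGATGG was found in 14.3%, 11.1% and 7.28% of these sets, the TATA box TATAAA in 10.7%, 12.1% and 15.7%, and the E-box CACGTG in 8.93%, 15.8% and 8.09%. The ETS core, the pyrimidine run and the YY1 core thus had a higher share in members than in both other sets, the last by little. These differences have no test. The motifs were searched on both strands and the run on the gene's strand. Annotated starts can lie some bases from the true start, and a match of letters is not a bound site.

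**Figure D1:**
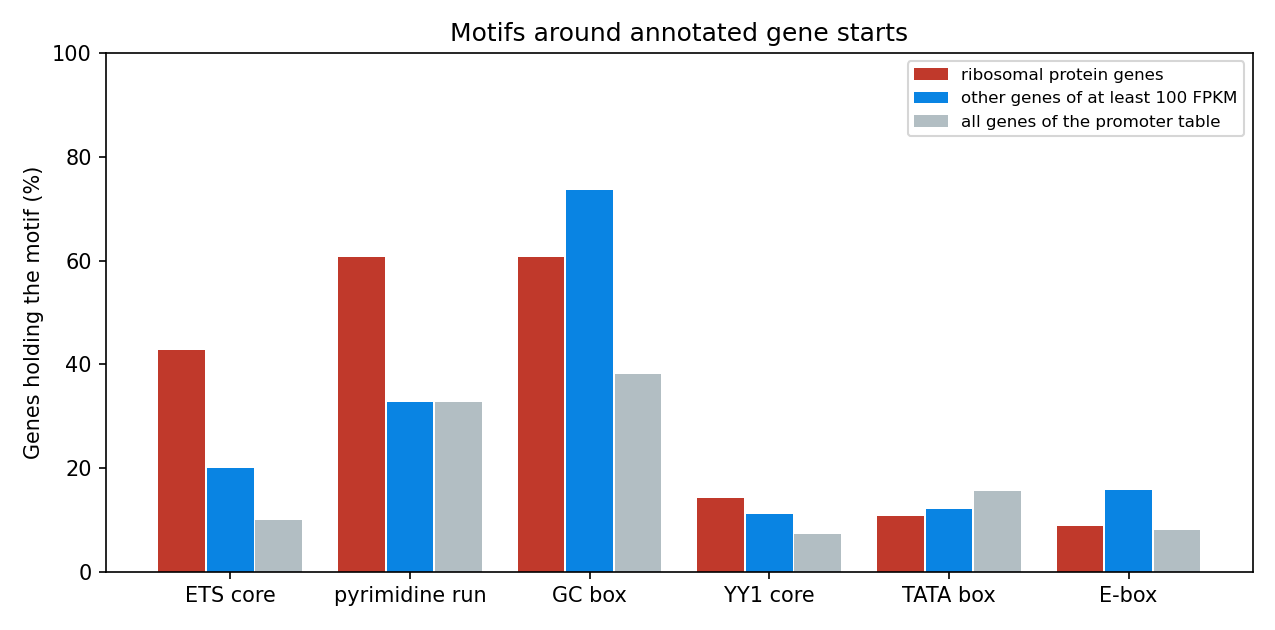
Share of genes (%, y axis) whose promoter holds each motif (x axis), for the 56 canonical ribosomal protein genes with a promoter, other genes of at least 100 FPKM and all genes of the table. The ETS core (42.9% of members) and the pyrimidine run (60.7%) stand above both other sets, and the GC box (60.7%) stands below other genes of at least 100 FPKM (73.7%).

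The ETS core lay in 3 of the 5 chromosome 11 members with a promoter and in 21 of 51 members on other chromosomes, and the pyrimidine run in 2 of 5 and 32 of 51. Outside chromosome 11, the median log2 change was -0.056 for the 21 members with the ETS core and -0.0097 for the 30 without it. For the pyrimidine run it was -0.055 with and -0.028 without. The YY1 core and the GC box ran the other way, at -0.0097 with and -0.052 without the first, and -0.039 with and -0.054 without the second. These gaps have no test.

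Most members stood at high levels, though the canonical ones ran from 126 to 2913 FPKM in Tdg -/- and from 127 to 3019 FPKM in Tdg fl/fl cells. Of the 20 symbols with the highest FPKM of all, 13 were members in Tdg -/- and 12 in Tdg fl/fl cells, and 67 of the 79 lay between 500 and 2000 FPKM in both. The highest was Rplp1, a protein of the flexible stalk of the large subunit that calls elongation factors to the ribosome, with 2913 FPKM in Tdg -/- and 3019 FPKM in Tdg fl/fl cells. Next in Tdg -/- cells came Rps2 at 2395 FPKM, Rps12 at 2325 FPKM, Rpl23a at 2000 FPKM, Rps4x at 1935 FPKM, Rps18 at 1911 FPKM, Rps20 at 1844 FPKM and Rpl39 at 1831 FPKM. In Tdg fl/fl cells these stood at 2586, 2431, 2406, 1844, 1986, 1852 and 1805 FPKM in the same order. The X-linked Rps4x and Rpl39 were thus higher in Tdg -/- cells and the other members of this group lower.

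At the low end, 4 canonical members were under 500 FPKM. Rps15a, a small subunit protein, had 126 FPKM in Tdg -/- and 127 FPKM in Tdg fl/fl cells. Rpl22 had 263 and 256 FPKM, Rpl21 had 415 and 416 FPKM, and Rpl15 had 416 and 441 FPKM in Tdg -/- and Tdg fl/fl cells. Ribosomal protein genes have many processed pseudogenes, and no source used here says how the counting placed reads shared with such copies, so levels of members with near-identical copies are uncertain. The coefficient of variation over the 75 canonical members was 40.8% in Tdg -/- and 40.9% in Tdg fl/fl cells, and across all 79 the log2 levels of both genotypes had a Pearson r of 0.996, over genes of the same 2 tables.

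**Figure D2:**
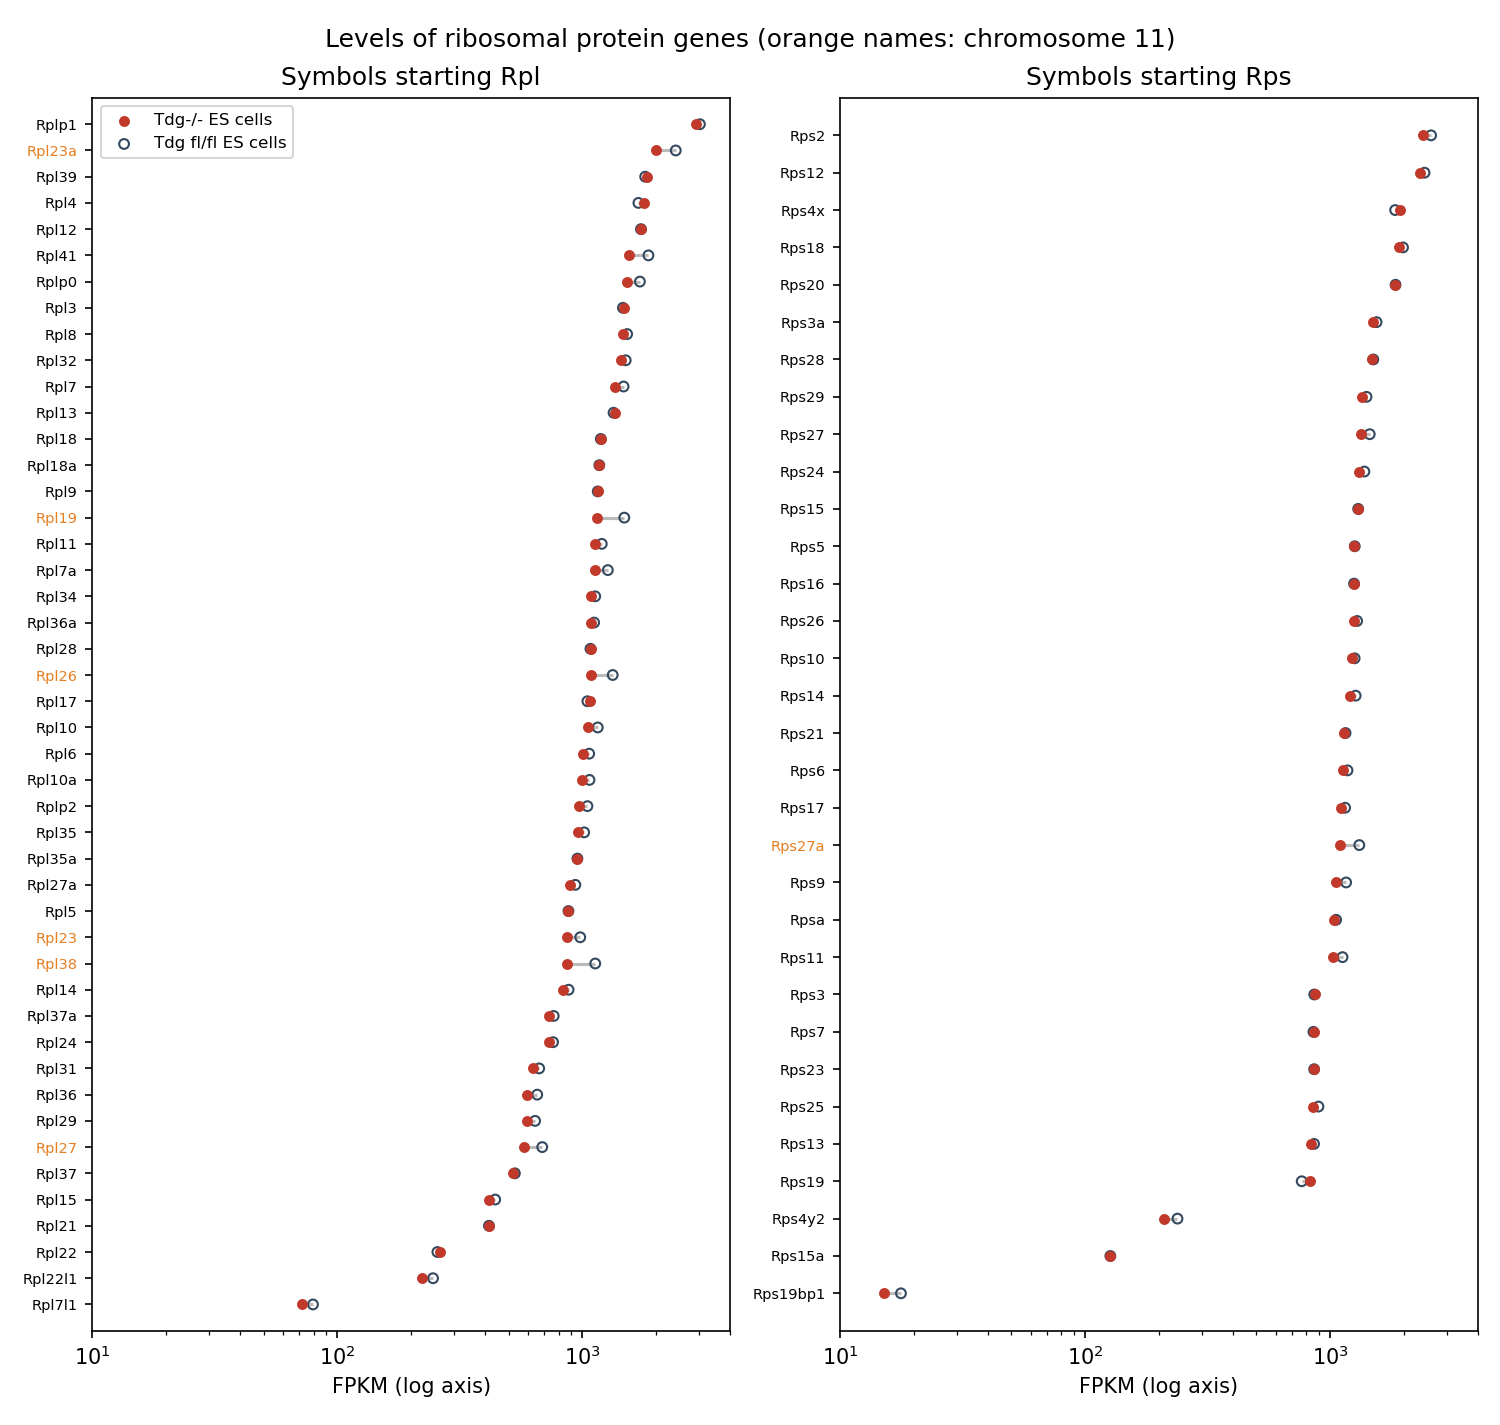
FPKM (x axis, log scale) of 78 of the 79 members (y axis) in Tdg -/- (filled) and Tdg fl/fl (open) ES cells, 1 value per genotype, with names on chromosome 11 in orange. The circles of most members lie nearly on each other, and the widest gaps belong to Rpl38, Rpl19 and other members on chromosome 11.

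Changes are log2((Tdg -/- FPKM + 1)/(Tdg fl/fl FPKM + 1)). FPKM are used as deposited. The total of all FPKM itself differed by -0.068 on this scale, so the sign of a change no larger than that, of a gene or of a median, depends on the scaling. The changes of members were small: they ran from -0.39 to 0.11, and 54 of the 79 lay within 0.1 of 0. So did 5197 of all 12053 measured genes and 202 of the 624 other genes of at least 100 FPKM. No member reached 0.5 in either direction, a size that 1.63% of all measured genes reached downward and 1.82% upward, and none reached 1, which 0.174% reached downward and 0.183% upward. With a limit of 0.2, chosen after the values were seen, 8 members were lower, where 15.1% of all measured genes were, and 0 were higher, where 12.5% were. The quartiles were -0.11 and -0.0057 for the members, and -0.22 and 0.047 for other genes of at least 100 FPKM.

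All 7 members on chromosome 11 were below 0, with log2 changes of -0.39 to -0.18. Rpl38 had 862 FPKM in Tdg -/- and 1129 FPKM in Tdg fl/fl cells, a log2 change of -0.39. Its protein sits on the surface of the large subunit, and in mice its loss alters the axial skeleton. Rpl19 had 1143 FPKM in Tdg -/- and 1483 FPKM in Tdg fl/fl cells (-0.38). Rpl26, which in human cells also binds the messenger RNA of the tumour suppressor p53, had 1081 and 1330 FPKM (-0.30). Rpl23a, near the exit of the peptide tunnel, had 2000 and 2406 FPKM (-0.27). These 4 large subunit genes kept 76.4% to 83.1% of their Tdg fl/fl level. Rps27a, made as a fusion to ubiquitin that is cut off afterwards, was the small subunit member on this chromosome, with 1099 FPKM in Tdg -/- and 1317 FPKM in Tdg fl/fl cells (-0.26). Rpl27 had 578 and 686 FPKM (-0.25), and Rpl23, known in human cells to bind the ubiquitin ligase MDM2, had 867 and 980 FPKM (-0.18).

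The other genes of chromosome 11 were lower too. The 992 measured genes there that are no members had a median change of -0.21, against chromosome medians from -0.031 to 0.0049 on the 18 other autosomes and X. Of all 999 measured genes of chromosome 11, 53.1% were lower by at least 0.2, as were 6 of the 7 members, and 83.8% were below 0, as were 7 of 7. The 75 other genes of at least 100 FPKM on it had a median of -0.31, and the 7 members one of -0.27. Relative to the median of the 25 nearest measured genes that are no members, Rpl38 stood at -0.13 and Rpl19 at -0.11, Rpl26 at -0.063, Rps27a at -0.055 and Rpl23a at -0.054, while Rpl27 stood at 0.043 and Rpl23 at 0.063. The cause of the shift of chromosome 11 was not tested.

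**Figure D3:**
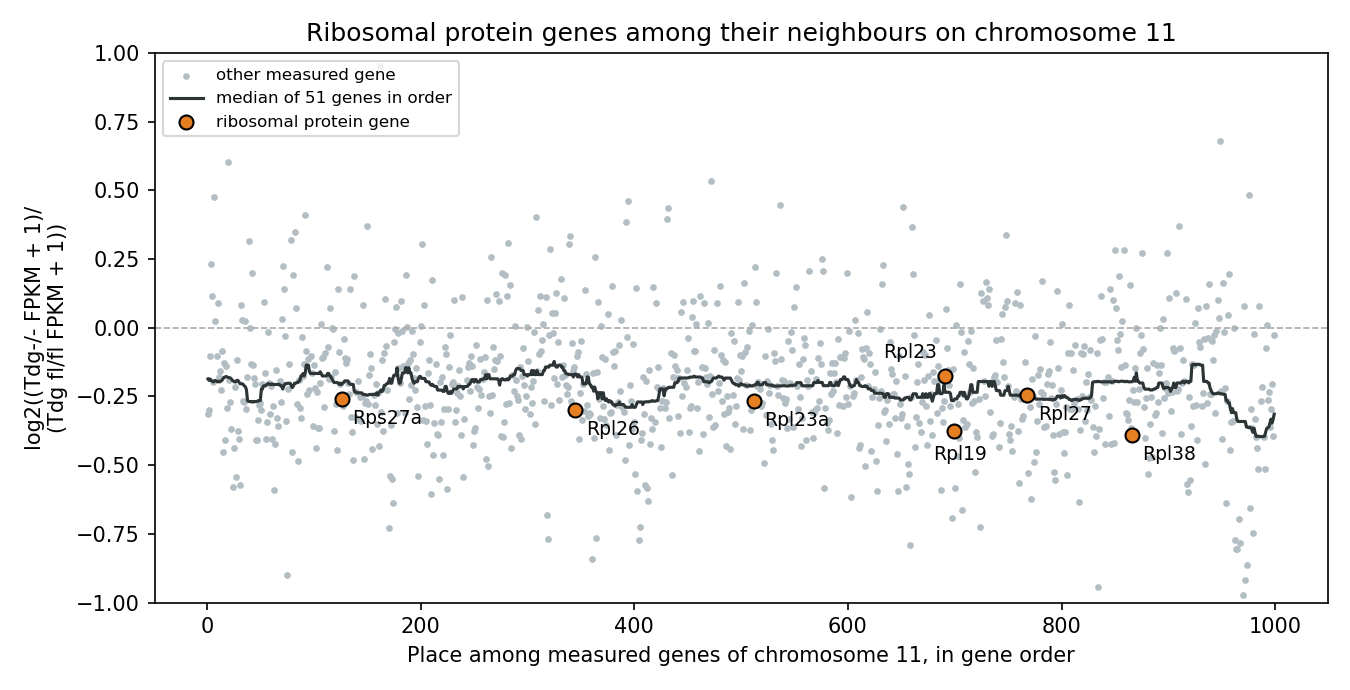
Log2 change (y axis) of measured genes of chromosome 11 in gene order (x axis, place among 999 genes), with the median of 51 genes in order as a line; 9 genes lie beyond the y axis. The 7 ribosomal protein genes lie along the whole chromosome from place 126 (Rps27a) to place 866 (Rpl38), all below 0, as is the line, and Rpl38 (-0.39, line at -0.20), Rpl26 (-0.30, line at -0.17) and Rpl19 (-0.38, line at -0.27) lie well under the line, and Rpl23 lies above it.

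On the other chromosomes 59 of 72 members were below 0 and their median was -0.053. Of the other measured genes outside chromosome 11, 52.1% were below 0, with a median of -0.0084, and of those with at least 100 FPKM 64.5% were, with a median of -0.075. Rpl41 on chromosome 10, which encodes the shortest of the ribosomal proteins, was the lowest of them, with 1557 FPKM in Tdg -/- and 1861 FPKM in Tdg fl/fl cells (-0.26), and stood at -0.23 relative to its neighbours. Rpl7a had 1123 FPKM in Tdg -/- and 1271 FPKM in Tdg fl/fl cells (-0.18). The members that are no canonical ribosomal proteins were also on the lower side, with Rps19bp1 at -0.21, Rps4y2 at -0.18, Rpl7l1 at -0.15 and Rpl22l1 at -0.14. Rpl36, a large subunit gene of chromosome 17, was at -0.14.

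Of the 79 members, 13 were above 0. Rps19, a small subunit protein whose loss of 1 copy causes Diamond-Blackfan anaemia in humans, had 825 FPKM in Tdg -/- and 767 FPKM in Tdg fl/fl cells, the highest change of all members (0.11). Rpl4 had 1782 FPKM in Tdg -/- and 1694 FPKM in Tdg fl/fl cells (0.074). Rps4x had 1935 FPKM in Tdg -/- and 1844 FPKM in Tdg fl/fl cells (0.069). Smaller positive changes belonged to Rpl22 at 0.038, Rpl17 at 0.030, Rpl39 at 0.020 and Rpl3, which lies near the peptidyl transferase centre, at 0.020. These 7 genes lay within 8% of their Tdg fl/fl level.

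The 4 X-linked members showed no common shift, with a median of -0.010, against -0.014 for the 396 other measured genes of that chromosome. Rps4x was at 0.069 and Rpl39 at 0.020. Rpl36a was at -0.040, with 1086 FPKM in Tdg -/- and 1117 FPKM in Tdg fl/fl cells, and Rpl10, which takes part in the joining of both subunits, was at -0.13, with 1059 and 1156 FPKM.

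**Figure D4:**
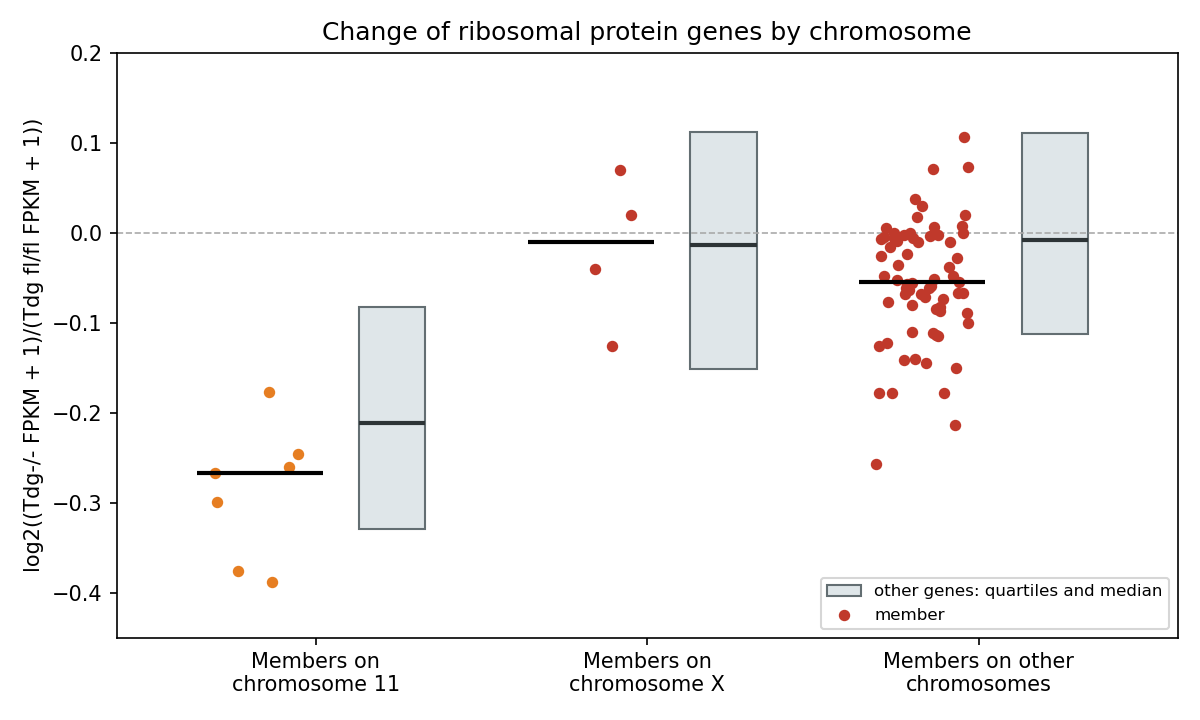
Log2 change (y axis) of the members on chromosome 11 (7), on X (4) and on the other chromosomes (68), each dot a gene and each thick line a median, beside boxes with the quartiles and median of other measured genes on chromosome 11, on X and on all chromosomes but 11. The dots of chromosome 11 lie between -0.39 and -0.18 and those of the other chromosomes between -0.26 and 0.11, with medians of -0.27 and -0.055.

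By role, the large subunit members had a median of -0.074 and the small subunit members one of -0.048, and 6 of the 7 chromosome 11 genes belong to the large subunit: without that chromosome the medians were -0.060 for 40 and -0.043 for 32 genes. In the stalk, Rplp0, the base that holds the other stalk proteins, had 1518 FPKM in Tdg -/- and 1717 FPKM in Tdg fl/fl cells (-0.18), while Rplp2 was at -0.11 and Rplp1 at -0.052. Rpl5 and Rpl11, which with a small ribosomal RNA form the particle that binds Mdm2 when ribosome assembly fails, were at -0.0019 and -0.089. Rps6, the small subunit protein phosphorylated downstream of mTOR, was at -0.054, with 1135 FPKM in Tdg -/- and 1179 FPKM in Tdg fl/fl cells. Rpsa, also known as the laminin receptor precursor, was at -0.025.

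As a family, the direction depends on the scaling. With FPKM as deposited, 66 of the 79 members were below 0 (54.9% of all measured genes were) and their median was -0.059, against -0.021 for all measured genes. The total of all FPKM was itself lower in Tdg -/- cells, at 425972 against 446397 in Tdg fl/fl cells. After rescaling to the same total the member median was 0.0080 with 34 below 0, against a median of 0.044 for all measured genes. After quantile normalization it was 0.033 with 29 below 0, against -0.0028 for all measured genes. Members thus lay below all genes as deposited and rescaled, and above them after quantile normalization. The 624 other genes of at least 100 FPKM, nearer to the members in level, had a median of -0.094 as deposited, with 68.1% below 0. The member median lay above that one, while the share of members below 0, 83.5%, was larger. Neither the share of all genes below 0 nor any value of the 624 was computed after rescaling or quantile normalization. Members took 20.7% of all FPKM in Tdg -/- and 20.8% in Tdg fl/fl cells. The part outside chromosome 11 held 18.9% and 18.7%, and the 7 genes of chromosome 11 held 1.79% and 2.09%. The chromosome 11 members were lower under each scaling, except that Rpl23a was at 0.029 after quantile normalization.

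Ribosomal parts that the rule does not name were measured too. Gnb2l1, now Rack1, a scaffold on the small subunit whose gene lies on chromosome 11, had 1568 FPKM in Tdg -/- and 1833 FPKM in Tdg fl/fl cells (-0.23). Fau, a ubiquitin-like fusion of the small subunit, had 653 FPKM in Tdg -/- and 650 FPKM in Tdg fl/fl cells (0.0058). Paralogues with names ending in l were far lower than their partners: Rpl10l stood at 11.2 FPKM in Tdg -/- and 11.1 FPKM in Tdg fl/fl cells, Rpl39l at 20.9 and 20.6 FPKM, and Rpl3l, a muscle paralogue of Rpl3, at 2.11 and 1.78 FPKM. Rps27l had 260 and 305 FPKM (-0.23) and Rpl36al had 305 and 341 FPKM (-0.16).

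Genes of the mitochondrial ribosome, of ribosome biogenesis and of RNA polymerases I and III with their factors were set beside the members as lists. The medians of these 3 lists stayed below 0 after rescaling to the same total and after quantile normalization. This was not particular to them. Among others, the median of 7 ribosomal protein-like paralogues was -0.077 rescaled and -0.030 after quantile normalization, and that of the carriers and chaperones below stayed under 0 too. For the mitochondrial ribosomal proteins, which build the separate ribosome of mitochondria, the median of 75 was -0.20, and 37 of them were lower by at least 0.2 and 0 higher, where 15.1% and 12.5% of all measured genes were. All 10 on chromosome 11 were among the 37, and outside that chromosome 27 of 65 were lower by 0.2, with a median of -0.18. Mrpl12 on chromosome 11 had 50.6 FPKM in Tdg -/- and 113 FPKM in Tdg fl/fl cells (-1.14). Genes on either side of it were lower too, Hgs at -0.80 and Slc25a10 at -0.70. The median of 51 genes in order was -0.34 at the place of Mrpl12. Mrpl20 on chromosome 4 had 36.04 FPKM in Tdg -/- and 49.6 FPKM in Tdg fl/fl cells (-0.45). Ribosome biogenesis factors had a median of -0.14 over 67 genes, or -0.13 over the 57 outside chromosome 11, with Nhp2, a protein of the particles that make pseudouridine, at -0.54 and Pes1 at -0.45, both on chromosome 11. RNA polymerases I and III transcribe ribosomal RNA and transfer RNA. Genes of their subunits and of factors that act with or on them had a median of -0.11 over 35 genes. Gtf3c6, of such a factor and not of a polymerase, was at -0.34. Rescaled to the same total, the 3 medians were -0.14, -0.078 and -0.049. These lists hold genes at far lower levels than the members.

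Genes that share the TOP tract with the members, and genes that act on it, had medians whose sign depended on the scaling. Translation factors and other TOP genes had a median of -0.012 over 15 genes as deposited, and 0.056 rescaled to the same total. Npm1, a nucleolar chaperone on chromosome 11, was the lowest, with 1678 FPKM in Tdg -/- and 2123 FPKM in Tdg fl/fl cells (-0.34), Eef1d was at -0.17 and Eif3h at -0.14, and the elongation factor Eef2 was the highest, with 1377 and 1253 FPKM (0.14). The host RNAs of small nucleolar RNAs had a median of -0.029 over 8 genes as deposited and 0.038 rescaled, with Snhg7 at 0.19 and Snhg5 at -0.18. Among 14 regulators of TOP messenger RNA translation the median was -0.061 as deposited and 0.0038 rescaled. Tsc2, an inhibitor of mTOR, had 16.5 FPKM in Tdg -/- and 24.2 FPKM in Tdg fl/fl cells (-0.52), the initiation scaffold Eif4g1 was at -0.24, Rptor at -0.23 and Rps6kb1 at -0.16, the last 2 on chromosome 11. Of 14 factors known at core promoters of ribosomal protein genes, the median was -0.035 as deposited and 0.031 rescaled, with Gabpb2 at 0.20, Taf1 at -0.12 and Tbpl1 at -0.24. Myc, which drives ribosome production, was near the 1 FPKM minimum, at 1.18 FPKM in Tdg -/- and 1.91 FPKM in Tdg fl/fl cells (-0.41). Mycn, of the same family, had 25.5 FPKM in Tdg -/- and 23.3 FPKM in Tdg fl/fl cells (0.12). A last list was drawn up for carriers and assembly chaperones of ribosomal proteins, though not all of its genes, Znhit3 among them, have that role. Its 15 genes had a median of -0.087 as deposited, -0.021 rescaled and -0.023 after quantile normalization, so the sign did not change. Znhit3 on chromosome 11 was at -0.58 and Grwd1 at -0.30.

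**Figure D5:**
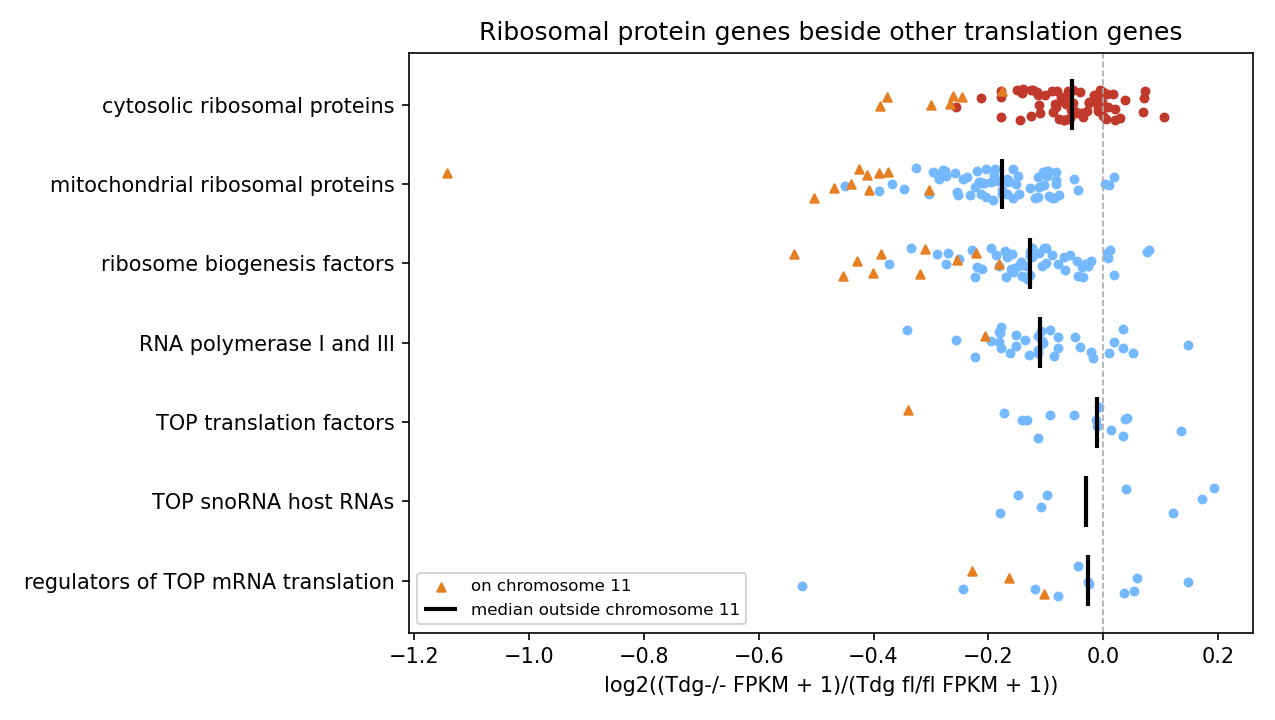
Log2 change (x axis) of each gene of the cytosolic ribosomal proteins and of 6 other lists (y axis), with genes of chromosome 11 as triangles and the median of the others as a bar. The medians outside chromosome 11 are -0.053 for cytosolic and -0.18 for mitochondrial ribosomal proteins, as deposited, and all triangles lie left of the bar of their list.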

How the data were processed

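PolyA RNA of 2 libraries for each genotype lies behind the 2 FPKM tables that the authors deposited. TopHat 1.4.1, Cufflinks 1.3.0 and the mm9 build are named in the submitters' processing notes. No source used here says how libraries were combined or whether counting used strand. The tables give neither read numbers nor transcript lengths, so the depth behind a value is unknown and no interval is given. The 20437 rows held 20286 symbols, and rows of 1 symbol were summed, though no member had several. Genes of at least 1 FPKM in either genotype were measured, and changes are log2 ratios with a pseudocount of 1. FPKM is per length, but with the lengths and the placing of shared reads unknown, the order of levels between different genes is only approximate. Chromosomes and gene order came from the RefSeq gene table of GRCm38.p6, by symbol or a synonym of a single gene, for 11976 of the 12053 measured genes and all 79 members. No gene coordinates of mm9 were used, so the region lists of 5fC, 5hmC and p300, deposited in mm9, were not used here. The code for the medians was checked on simulated data with set shifts, which says nothing about the reported medians themselves. The members and lists were chosen with earlier results of these data known. The values of 1 member and of 1 further ribosomal gene are not reported here, though counts and medians include that member. Any other member could be named, and of each list the genes with the largest absolute change, up to 4. Mycn was added beside Myc, and Hgs and Slc25a10 beside Mrpl12. Python 3.11.15 and pandas 2.3.3 were used.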

Additional observations from a re-analysis of the deposited data

How the results depend on the processing

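Another pseudocount (0.1 or none), another minimum (5 FPKM or none), the highest row of each symbol, leaving out symbols with several rows, adding 8 further ribosomal genes, and centring on genes outside chromosome 11 or, added after seeing the data, on all genes moved no median of the members beyond an order-statistic interval, nominally of 95%, nor their share of FPKM by 1 percentage point or a count of them by over 1.5 times. That interval was taken from the spread over member genes, which are no replicates, so it is only a yardstick for the size of a move. For the members on chromosome 11 and on X it was their full range, a wide limit. The median of all measured genes, -0.021 as reported, was -0.036 with the minimum of 5 FPKM and 0 with none. It was 0.044 rescaled to the same total and -0.0028 after quantile normalization. Leaving out the 4 members that are no canonical ribosomal protein, chosen after seeing the data, gave a median of -0.056. Rescaling to the same FPKM total put the medians at 0.0080 for all members, -0.00646 for the large subunit, 0.020 for the small subunit and 0.014 outside chromosome 11, with 34 members below 0 and 3 lower by 0.2. Quantile normalization put them at 0.033, 0.038, 0.012 and 0.036, and at 0.082 for X, with 29 below 0, 4 lower by 0.2 and 1 higher by 0.2. Without chromosome 11, 2 members were lower by 0.2. The median of the chromosome 11 members lay between -0.27 and -0.20 in all settings that keep them. With a window of 100 bases before the start, the GC box lay in 46.4% of members, 63.4% of other genes of at least 100 FPKM and 31.5% of all genes. The E-box lay in 3.57%, 9.51% and 5.003% of these sets, and the TATA box in 8.93%, 7.29% and 8.08%. Among members these shares are 2 and 5 of 56 genes. The order of members and all genes for these 2 motifs changed with the window and rests on few genes. Of 1016 single gene values under 13 alternatives, 987 moved by under 0.1. The comparison with region lists was not run. No paired analysis was possible because each genotype has 1 combined value per gene. The unknown depth limits every small difference reported here.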

Other observations

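The ribosomal S6 kinases share the first letters of the members but were left out of them. Of the 9 listed, Rps6ka2 was the highest in change, with 18.2 FPKM in Tdg -/- and 13.8 FPKM in Tdg fl/fl cells (0.37), and Rps6kl1 the lowest, with 1.73 and 2.70 FPKM (-0.44). The pseudogene-named Rps19-ps3 stood at 180 FPKM in Tdg -/- and 177 FPKM in Tdg fl/fl cells (0.019), below its parent gene Rps19.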
